A study of Mus musculus with 30 samples.

Results

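Cytosolic heat shock proteins were followed through 10 genes: the HSP90 pair Hsp90aa1 and Hsp90ab1, the HSP70 genes Hspa1a, Hspa1b and Hspa8, the small heat shock proteins Cryab, Hspb1 and Hspb7, and the co-chaperones Dnajb1 and Bag3. They were chosen by name and matched by Ensembl ID, and all 10 were found among the 78258 genes of the postpartum table and among the 56691 genes of the diet table. The hearts came from wild-type (WT) mice and from mice with the p.S55L change in CHCHD10, a protein of the mitochondrial intermembrane space. Naive mice of both genotypes reached an age of 100 days, and postpartum (PP) mice, mated at 65 days, were taken on the day of delivery (postpartum day 0). The diet study held S55L mice alone, also taken on postpartum day 0, which had been fed either the control diet or one supplemented with EH301 while they were bred. EH301 holds pterostilbene and the NAD precursor nicotinamide riboside. The tissue was labelled only as heart, and zygosity, the sex of naive mice and the age of PP mice at death were not given in the sources used here.

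The heat shock proteins are molecular chaperones. HSP70 and HSP90 bind and release client proteins in cycles driven by ATP, J-domain proteins such as DNAJB1 deliver clients to HSP70 and start its ATPase, and nucleotide exchange factors such as BAG3 make it release them. Small heat shock proteins hold unfolding proteins without ATP, and in muscle αB-crystallin (Cryab), HSPB1 and HSPB7 bind desmin, titin and actin-linked filaments at the Z-disc and I-band. The transcription factor HSF1 induces many of these genes on proteotoxic stress, through alternating GAA and TTC units called heat shock elements. Hsp90aa1, Hspa1a and Hspa1b are the classical inducible members, while Hsp90ab1 and Hspa8 are made in most cells without stress. Mutations of CRYAB and BAG3 cause inherited cardiomyopathy in humans.

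RefSeq promoter windows (GRCm38.p6, 250 bases before to 50 after a start site) were at hand for 6 of the 10 members: Hspb1, Hspb7, Hspa1a, Hspa1b, Bag3 and Dnajb1, the last with a pair of windows. A full heat shock element of 3 units with 2 bases between them, GAANNTTCNNGAA or TTCNNGAANNTTC, was in no member window, and in 198 of 32851 windows of all genes (0.603%). The shorter form of 2 units, GAANNTTC or TTCNNGAA, overlaps the full form and reads the same on both strands. It was in the windows of Hspb1 (2 matches), Hspa1a, Hspa1b and Bag3 (1 each), and not in those of Hspb7 and Dnajb1, against 4946 of 32851 windows of all genes (15.1%). Set beside the calls between genotypes described further on, Hspb1, with 2 matches, was called in both comparisons and Hspb7, with no match, in neither. Dnajb1, with no match, was called in naive hearts. Hspa1a, Hspa1b and Bag3, with 1 match each, were called in neither comparison, and Hspa1a and Hspa1b had few reads. The called members Hsp90aa1, Hsp90ab1, Hspa8 and Cryab had no window, and a link of matches to calls was not tested. The bases before the start sites of 4 members are shown, to give windows with 2, 1 and 0 matches and the nearly alike Hspa1a and Hspa1b copies. Capitals mark the 2-unit form, on the gene's own strand, 5′ to 3′.
Hspb1, chr5:135887669-135887918, plus strand: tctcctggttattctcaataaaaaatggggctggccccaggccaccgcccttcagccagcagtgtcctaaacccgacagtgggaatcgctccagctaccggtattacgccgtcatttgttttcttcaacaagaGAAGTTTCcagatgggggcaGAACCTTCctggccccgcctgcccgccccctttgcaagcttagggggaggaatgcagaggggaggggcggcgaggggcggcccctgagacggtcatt
Hspa1a, chr17:34972157-34972406, minus strand: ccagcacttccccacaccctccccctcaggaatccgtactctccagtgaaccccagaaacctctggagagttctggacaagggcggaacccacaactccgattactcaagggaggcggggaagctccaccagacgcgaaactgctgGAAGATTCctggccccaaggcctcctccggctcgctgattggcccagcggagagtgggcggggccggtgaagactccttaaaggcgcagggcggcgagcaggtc
Hspa1b, chr17:34959239-34959488, minus strand: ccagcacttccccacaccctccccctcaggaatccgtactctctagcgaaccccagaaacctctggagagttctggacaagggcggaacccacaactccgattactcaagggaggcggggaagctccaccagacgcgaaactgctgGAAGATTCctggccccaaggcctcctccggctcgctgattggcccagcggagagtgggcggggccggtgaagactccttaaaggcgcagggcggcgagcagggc
Hspb7, chr4:141420529-141420778, plus strand: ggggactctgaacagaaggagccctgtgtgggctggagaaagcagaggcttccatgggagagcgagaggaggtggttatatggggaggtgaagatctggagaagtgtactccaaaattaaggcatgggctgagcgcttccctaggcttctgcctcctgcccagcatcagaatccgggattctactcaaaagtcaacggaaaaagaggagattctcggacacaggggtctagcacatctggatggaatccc
The Hspb1 matches began 117 and 97 bases before the start site, and the Hspa1a and Hspa1b matches began 104 bases before it. The Bag3 match began 42 bases after the start site and lies outside the bases before it. The Hspa1a and Hspa1b stretches differed at 3 of 250 positions. These matches describe the letters in the windows and were not tested as binding sites.

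Counts were of 3′ ends of mRNA (Lexogen QuantSeq FWD), so a value follows reads near the end of a transcript, and levels of different genes were not ranked against each other. Each of the 6 groups was deposited as 5 columns, of which the first pair of WT PP and the first pair of S55L PP held the same counts for every gene and were each counted as 1 library (n = 4). One column stood under both diets and was left out (n = 4 for each diet). Reads on genes ranged from 1418715 to 2949993 in WT hearts and 2755500 to 5131316 in S55L hearts in the postpartum study, and from 466651 to 3048461 in the diet study. Reads aligned to several places, which leave processed-pseudogene families such as those of Hspa8 and the HSP90 genes uncertain, made up 24.7% to 27.3% of WT and 17.5% to 21.2% of S55L libraries, without overlap. A code in the column names had the number 1 for all WT libraries but WT PP 1, which had 2, and 2 or 3 for S55L libraries, so genotype and this number were nearly the same split. Library 5 of WT PP and library 3 of S55L naive stood apart in Hspb7, and library 1 of the control diet and library 8 of the EH301 diet were the shallowest and stood apart in several members. Cardiomyocyte transcripts were abundant in every library (Myl2, Myh6, Tnni3, Tnnt2, Ryr2 and Actc1 summed to 25433 to 67296 CPM, reads scaled to a common library size by TMM). Their sum does not tell which part of the heart was taken. Nothing in the labels ties a library to a mouse of its own, and all p-values rest on the spread between libraries, which may be technical.

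In naive hearts 6 of the 10 members were higher in S55L than in WT and none was lower. These were Hsp90aa1, Hsp90ab1, Hspa8, Cryab, Hspb1 and Dnajb1, by the edgeR quasi-likelihood test with an adjusted p threshold of 0.05. In postpartum hearts 5 were higher, the same ones without Dnajb1. Hsp90aa1 had the largest log2 fold change of the 10 in both comparisons, 2.16 and 2.06. Of all 11945 genes tested, 21.9% were called higher and 21.6% lower in naive hearts, and 16.4% higher and 15.2% lower in postpartum hearts. With library totals in place of trimmed means, the called genes split as 4013 higher of 5498 in naive hearts, against 2615 of 5193, and as 3450 higher of 4430 in postpartum hearts, against 1957 of 3770. The median log2 fold change was 0.83 over the 10 members and -0.0038 over all genes tested in naive hearts, and 0.78 and 1.47e-06 in postpartum hearts. With library totals the median of all genes was 0.24 and 0.27, and 8 and 7 members were called higher. All 10 members passed the filter on low counts in the postpartum table. In these bulk hearts fewer cells of a type and less RNA per cell cannot be told apart.

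**Figure D1:**
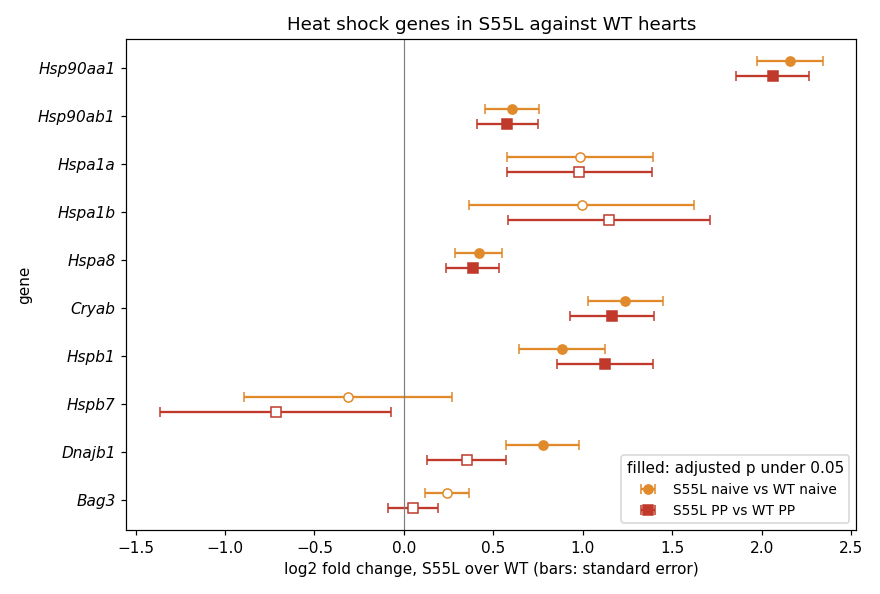
Log2 fold change of S55L over WT (x axis) for the 10 genes (y axis) in naive hearts (circles) and postpartum hearts (squares), with bars for the standard error and filled symbols for an adjusted p under 0.05. Hsp90aa1 lies furthest to the right, at 2.16 and 2.06, and Hspb7 is the one gene left of 0 in both comparisons.

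Hsp90aa1 (ENSMUSG00000021270), the inducible HSP90, read 218, 202, 188, 194 and 227 CPM in WT naive libraries 1 to 5. It read 1368, 918, 794, 828 and 693 CPM in S55L naive libraries 1 to 5. Every S55L library lay far above every WT library. The means were 206 ± 16.2 and 920.4 ± 263 CPM (SD, n = 5 each), with a log2 fold change of 2.16 (SE 0.18, edgeR adjusted p = 4.0e-10). In postpartum hearts Hsp90aa1 read 289, 212, 204 and 261 CPM in WT libraries 1, 3, 4 and 5, and 1366, 1115, 745 and 810.4 CPM in S55L libraries 1, 3, 4 and 5. The groups again did not overlap, with a log2 fold change of 2.06 (SE 0.20, edgeR adjusted p = 1.0e-08). In both genotype comparisons S55L library 1 held the highest value, and the S55L libraries were more spread than the WT ones.

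Hsp90ab1 (ENSMUSG00000023944), the constitutive HSP90, moved less. It read 1503, 1295, 1200.3, 1386 and 1481 CPM in WT naive libraries and 2563, 2124, 2498, 1760.1 and 1486 CPM in S55L naive libraries. The lowest S55L library lay below the highest WT library, so the groups touched, and the log2 fold change was 0.60 (SE 0.15, edgeR adjusted p = 0.0022). In postpartum hearts the WT values were 1642, 1266, 1285 and 1208 CPM and the S55L values 2179, 2082, 2195 and 1609.7 CPM, with 1 S55L library under the highest WT library. The log2 fold change was 0.58 (SE 0.17, edgeR adjusted p = 0.010). With the code number as a term, Hsp90ab1 was at 0.21 in naive and -0.03 in postpartum hearts (edgeR adjusted p = 0.63 and 0.96).

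Because Hsp90aa1 and Hsp90ab1 come from the same library, the share of Hsp90aa1 in their summed reads does not depend on how libraries are scaled. In WT libraries it was 12.7%, 13.5%, 13.6%, 12.3% and 13.3% (naive) and 15.0%, 14.3%, 13.7% and 17.8% (postpartum). In S55L libraries it was 34.8%, 30.2%, 24.1%, 32.0% and 31.8% (naive) and 38.5%, 34.9%, 25.3% and 33.5% (postpartum). The mean share was 13.1% ± 0.563 against 30.6% ± 3.97 in naive hearts (SD, n = 5 each), and 15.2% ± 1.79 against 33.1% ± 5.57 in postpartum hearts (n = 4 each). The S55L and WT libraries did not overlap in either state. The two-sided exact permutation test gave p = 0.0079 (naive) and p = 0.029 (postpartum), each the smallest that the numbers of libraries allow, and 0.079 and 0.095 after adjustment over the 10 tests of this kind, which do not pass. Within WT, each of the 4 postpartum libraries lay above each of the 5 naive libraries, by 2.14 percentage points on average (exact permutation p = 0.016, again the smallest possible, adjusted p = 0.079). S55L postpartum and naive libraries overlapped (exact permutation p = 0.43).

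**Figure D2:**
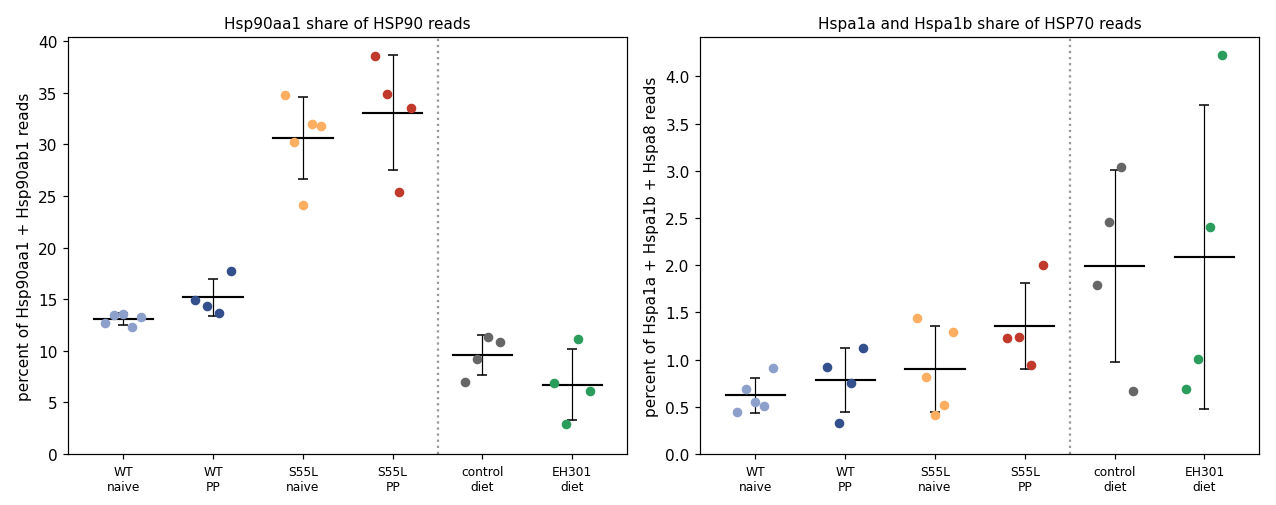
Percent of reads from the inducible genes in each library (points) by group (x axis), with the group mean (line) and SD (bar). The left panel gives Hsp90aa1 within the reads of the HSP90 pair. The right panel gives Hspa1a plus Hspa1b within the reads of Hspa1a, Hspa1b and Hspa8. The dotted line parts the postpartum study from the diet study, which was counted separately. On the left all S55L libraries of the postpartum study lie at 24.1% or more and all WT libraries at 17.8% or less, and on the right the groups overlap.

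Cryab (ENSMUSG00000032060), the αB-crystallin gene, was the other member with a change above 1 on the log2 scale in both comparisons. It read 3113, 6043, 5228, 7268 and 4546 CPM in WT naive libraries and 12719, 10379, 11797, 11636 and 15282 CPM in S55L naive libraries. The lowest S55L library was above the highest WT library, with a log2 fold change of 1.24 (SE 0.21, edgeR adjusted p = 3.6e-05). In postpartum hearts WT libraries read 4312, 6311, 6543 and 8942 CPM and S55L libraries 9526, 17732, 14215 and 17038 CPM. The groups did not overlap there either, with a log2 fold change of 1.16 (SE 0.23, edgeR adjusted p = 0.00039). Cryab supplied 49.2% to 79.0% of all reads on the 10 members in the postpartum study, so their summed share of reads on genes followed it. That share was 0.756% ± 0.104 in WT naive, 0.919% ± 0.210 in WT PP, 1.88% ± 0.189 in S55L naive and 2.25% ± 0.319 in S55L PP hearts (SD). Cryab shares 252 exon bases with Hspb2 on the opposite strand in the GENCODE M21 annotation, and the strand setting of the counting was not given in the sources used here. Hspb2 itself stood at 33.8 ± 2.60 CPM in WT naive and 28.3 ± 6.64 CPM in S55L naive hearts and was not called.

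Hspb1 (ENSMUSG00000004951), which encodes the small heat shock protein HSP27 (HSP25 in mice), read 195, 317, 295, 277 and 363 CPM in WT naive libraries and 699.6, 564, 482, 461 and 459 CPM in S55L naive libraries. These did not overlap, and the log2 fold change was 0.88 (SE 0.24, edgeR adjusted p = 0.0055). In postpartum hearts the values were 238, 280.4, 362 and 435 CPM in WT and 1175, 713, 362 and 619.9 CPM in S55L, where S55L library 4 lay within the WT range. The log2 fold change was 1.12 (SE 0.27, edgeR adjusted p = 0.0029). With the code number as a term Hspb1 had 1.48 (edgeR adjusted p = 0.057) in naive and 1.38 (edgeR adjusted p = 0.095) in postpartum hearts.

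Hspb7 (ENSMUSG00000006221), the small heat shock protein most restricted to heart and skeletal muscle, was not called in either comparison. It read 290.2, 186, 194, 115 and 351 CPM in WT naive and 123, 119, 448, 106 and 120.0 CPM in S55L naive libraries. The S55L libraries lay between 106 and 123 CPM except library 3, which was the highest of the 10. In WT PP it read 187, 153, 137 and 806 CPM and in S55L PP 294, 110.1, 108 and 274 CPM, with WT PP library 5 the highest of all. The log2 fold changes were -0.31 (SE 0.58, edgeR adjusted p = 0.69) and -0.72 (SE 0.65, edgeR adjusted p = 0.44). Without WT PP 5 and S55L naive 3, an alternative chosen after seeing the data, Hspb7 was lower in S55L naive hearts, with -0.96 (SE 0.34, edgeR adjusted p = 0.034), and the postpartum value was 0.30 (edgeR adjusted p = 0.59).

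**Figure D3:**
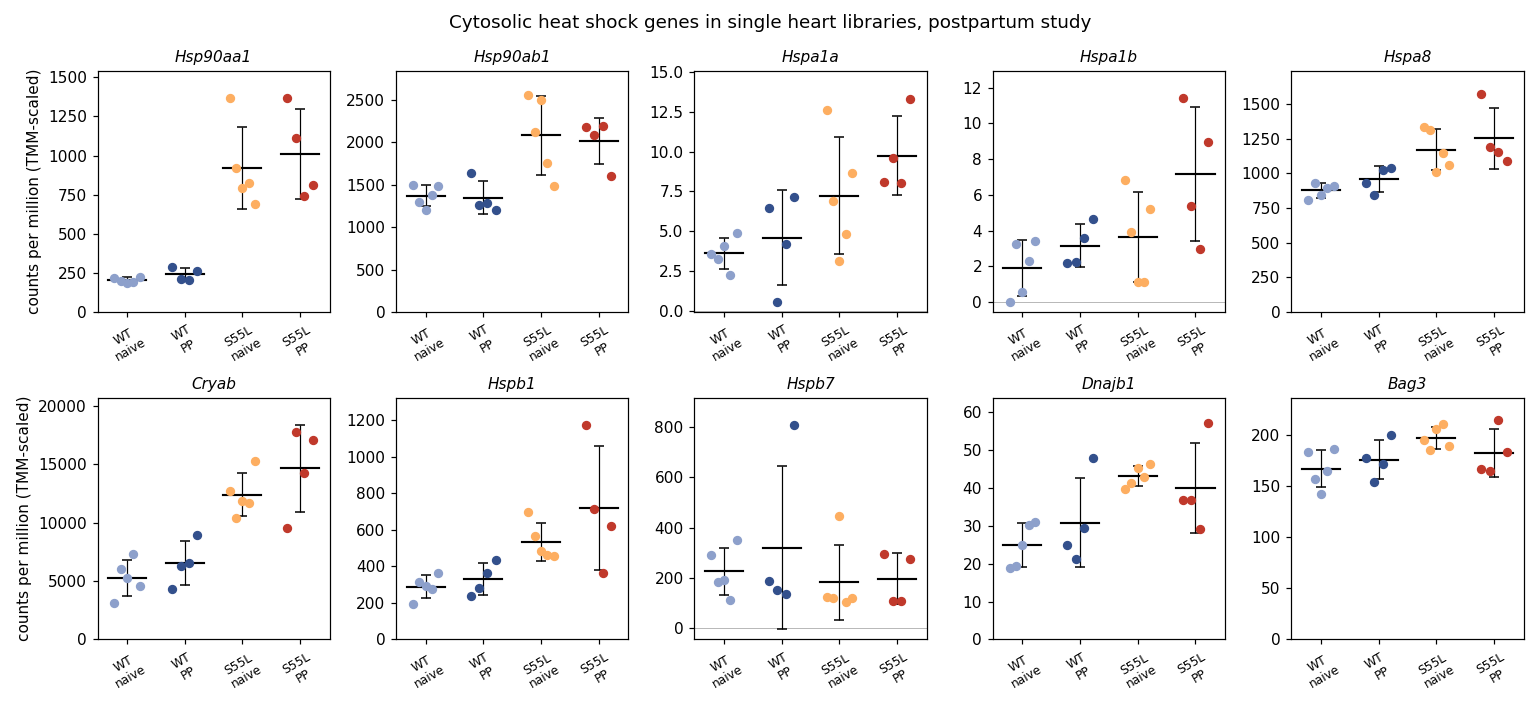
TMM-scaled CPM (y axis, from 0, each panel its own scale) of the 10 genes in every library of the postpartum study (points) by group (x axis), with the mean (line) and SD (bar). In the Hsp90aa1 and Cryab panels the S55L points lie above all WT points, and in the Hspb7 panel 1 WT PP and 1 S55L naive library stand far above their groups.

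Among the HSP70 genes, the constitutive Hspa8 (ENSMUSG00000015656) was the one called. It read 805, 934, 846, 892 and 909 CPM in WT naive and 1337, 1309, 1009.6, 1144 and 1057 CPM in S55L naive libraries, without overlap (log2 fold change 0.42, SE 0.13, edgeR adjusted p = 0.012). In postpartum hearts WT libraries read 933, 841, 1024 and 1036 CPM and S55L libraries 1572, 1191, 1153 and 1091 CPM. The groups did not overlap there, but the log2 fold change of 0.39 (SE 0.15, edgeR adjusted p = 0.046) lay close to the threshold, and 5 of the 8 fits that left out 1 library lost the call (edgeR adjusted p up to 0.17, without S55L PP 1). With the code number as a term Hspa8 had 0.47 in naive and 0.23 in postpartum hearts (edgeR adjusted p = 0.20 and 0.62).

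The inducible HSP70 genes Hspa1a and Hspa1b had few reads, from 0 to 61 per library, and counting error was large. Hspa1a (ENSMUSG00000091971) read 3.58, 3.25, 4.07, 2.28 and 4.92 CPM in WT naive and 12.6, 6.92, 3.10, 4.81 and 8.67 CPM in S55L naive libraries, with overlap. The log2 fold change was 0.99 (SE 0.41, edgeR adjusted p = 0.052), and under 22 alternatives it ran from 0.39 (with the code number as a term, edgeR adjusted p = 0.77) to 1.24 (with library totals) and passed in 8. In postpartum hearts the WT libraries read 6.49, 0.555, 4.20 and 7.13 CPM and the S55L libraries 8.08, 9.60, 8.03 and 13.3 CPM. Each S55L library lay above each WT library, but the log2 fold change of 0.98 (SE 0.41) did not pass (edgeR adjusted p = 0.066). With the title number as a replicate block over all groups of the postpartum study, naive ones included, it was 1.14 and passed (edgeR adjusted p = 0.014).

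Hspa1b (ENSMUSG00000090877) read 0, 3.25, 0.581, 2.28 and 3.44 CPM in WT naive, 6.84, 3.91, 1.11, 1.13 and 5.20 in S55L naive, 2.16, 2.22, 3.60 and 4.63 in WT PP and 11.4, 5.36, 2.94 and 8.98 in S55L PP libraries. Values above 5 CPM were all in S55L libraries. Its means were 1.91 ± 1.56 CPM in WT naive, 3.15 ± 1.19 in WT PP, 3.64 ± 2.52 in S55L naive and 7.18 ± 3.76 in S55L PP hearts (SD), and the genotype groups overlapped in both states. Its log2 fold changes were 0.99 (SE 0.63, edgeR adjusted p = 0.21) and 1.15 (SE 0.57, edgeR adjusted p = 0.13). The whole Hspa1a and Hspa1b transcripts were 85.5% identical in GENCODE M21, with a shared run of 638 bases, but their last 300 bases, where 3′ reads fall, were 52.8% identical with no shared run over 10 bases. Summed into 1 row, they were called in postpartum hearts (log2 fold change 1.06, edgeR adjusted p = 0.047). The share of both in the reads of Hspa1a, Hspa1b and Hspa8 was 0.620% ± 0.186 in WT naive, 0.781% ± 0.337 in WT PP, 0.896% ± 0.456 in S55L naive and 1.35% ± 0.455 in S55L PP hearts (SD). The S55L and WT postpartum groups differed with an exact permutation p of 0.057 (adjusted p = 0.14), and none of the 5 comparisons of this share passed. Hspa1a also shares 564 exon bases with Gm20481 on the opposite strand.

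Of the co-chaperones, Dnajb1 (ENSMUSG00000005483), the J-domain partner of HSP70, was higher in S55L naive hearts. It read 18.9, 19.5, 24.99, 30.2 and 31.0 CPM in WT and 39.8, 41.2, 45.2, 42.7 and 46.4 CPM in S55L naive libraries, without overlap (log2 fold change 0.78, SE 0.20, edgeR adjusted p = 0.0032). In postpartum hearts the values were 24.9, 21.1, 29.4 and 47.8 CPM in WT and 36.8, 36.6, 29.2 and 57.0 CPM in S55L, with library 5 the highest of both groups. The groups overlapped and the log2 fold change of 0.35 (SE 0.22) did not pass (edgeR adjusted p = 0.24). Without WT PP 5 it was 0.66 and passed (edgeR adjusted p = 0.020). Whether the genotype effect on Dnajb1 differed between the states was tested by the interaction, at -0.43 (SE 0.30, unadjusted p = 0.17, edgeR adjusted p = 0.996).

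Bag3 (ENSMUSG00000030847), the exchange factor that links HSP70 to autophagy at the Z-disc, was called in neither comparison. It read 183, 157, 142, 165 and 186 CPM in WT naive and 195, 185, 205, 210.3 and 188 CPM in S55L naive libraries, and 177, 154, 172 and 199.9 CPM in WT PP and 166, 165, 215 and 182 CPM in S55L PP libraries. The S55L and WT libraries overlapped in both states. The log2 fold changes were 0.24 (SE 0.12, edgeR adjusted p = 0.12) and 0.05 (SE 0.14, edgeR adjusted p = 0.82). In naive hearts Bag3 passed under 3 of 22 alternatives, with library totals (0.48, edgeR adjusted p = 0.0043), the DESeq2 test (0.26, adjusted p = 0.049) and voom (0.27, adjusted p = 0.035).

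By libraries alone, 5 of the 10 members had every S55L naive library above every WT naive library (Hsp90aa1, Hspa8, Cryab, Hspb1 and Dnajb1), where 16.8% of all tested genes did. In postpartum hearts 4 did (Hsp90aa1, Hspa1a, Hspa8 and Cryab), against 13.7% of all genes. With the code number as a term, 3 members were called in naive hearts and 3 in postpartum hearts, Hsp90aa1, Cryab and Dnajb1 each time. That term rests on the few libraries whose number departs from their group's. Over all 11945 genes, the same fit called 2871 in naive hearts, 1388 of them higher, and 2109 in postpartum hearts, 1072 of them higher. The main fit called 5193 and 3770. Hsp90aa1 then had 1.81 and 1.49, Cryab 1.99 and 1.98, and Dnajb1 1.21 and 1.20 on the log2 scale.

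Between postpartum and naive hearts none of the 10 members passed the threshold in either genotype. The sex of naive mice and the age of PP mice were not given, so pregnancy and delivery cannot be told apart from these. Within S55L the code number in the column names was 2 in all naive libraries and 3 in PP libraries 1, 3 and 4. Only S55L PP 5 had 2, so state and this number were nearly the same split there. Between WT PP and WT naive hearts 0 genes were called higher (0.00%) and 2 lower (0.0167%) of all tested, with 756 genes at an unadjusted p under 0.05, 10 called by the DESeq2 test and 2 by limma voom. Between S55L PP and S55L naive hearts 0 were called higher (0.00%) and 0 lower (0.00%), with 749 at an unadjusted p under 0.05, 14 by DESeq2 and 20 by voom. No member had an unadjusted p under 0.05 in either comparison. The nearest was Hspa1b in S55L hearts, with a log2 fold change of 0.93 (SE 0.47, unadjusted p = 0.060, edgeR adjusted p = 0.80). Hsp90aa1 had 0.23 (SE 0.19) in WT and 0.13 (SE 0.18) in S55L hearts, and Cryab had 0.32 (SE 0.22) and 0.24 (SE 0.22). Hspb1 had 0.19 (SE 0.26) and 0.43 (SE 0.25), Hspa8 0.13 (SE 0.14) and 0.10 (SE 0.14), and Hsp90ab1 -0.02 (SE 0.16) and -0.05 (SE 0.16). The median over the 10 members was 0.27 in WT and 0.11 in S55L hearts. For Hspb7 the value in WT, 0.50 (SE 0.61), rested on library 5 and was -0.51 without it. The 2 comparisons of genotype and these 2 of state share the same libraries.

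The genotype effect was not shown to differ between naive and postpartum hearts for any member. The interaction called 0 genes higher (0.00%) and 0 lower (0.00%), with 445 genes at an unadjusted p under 0.05, 1 called by DESeq2 and 0 by voom, and no member at an unadjusted p under 0.05. For Hsp90aa1 the interaction was -0.10 (SE 0.26) and for Cryab -0.07 (SE 0.31) on the log2 scale. For Hspb1 it was 0.24 (SE 0.36).

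Other chaperone genes were read from lists of the pathway. Their counts stand beside the shares of all genes tested, 21.9% called higher and 21.6% lower in naive hearts, and 16.4% and 15.2% in postpartum hearts. Of 3 tested genes in the list of heat shock factors, Hsbp1 rose in S55L naive hearts (log2 fold change 0.53, SE 0.12, edgeR adjusted p = 0.00071), and none was called in postpartum hearts. Hsbp1 encodes a small protein that binds HSF1 and is not itself a heat shock factor. Hsf1 itself had 0.44 (edgeR adjusted p = 0.051) and -0.02. Of 8 other cytosolic HSP70 and HSP110 genes, 4 rose and 2 fell in naive hearts and 3 rose and 2 fell in postpartum hearts. Hsph1, the inducible HSP110 and an exchange factor of HSP70, had 1.03 (SE 0.17) and 1.15 (SE 0.18), and Hspa4l, of the same family, 0.93 (SE 0.17) and 0.96 (SE 0.18). Hspa4 had 0.86 (SE 0.16) in naive hearts. Hspa12a, a distant HSP70 relative, fell in postpartum hearts (-1.03, SE 0.23). Of 4 other small heat shock proteins, Hspb8, the partner of BAG3, rose in naive hearts (0.63, SE 0.16, edgeR adjusted p = 0.0018) and was at 0.42 in postpartum hearts (edgeR adjusted p = 0.065).

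Of the TRiC chaperonin, the ring that folds actin and tubulin, 7 of 8 subunit genes rose in naive and 6 of 8 in postpartum hearts. None fell, and over all genes tested 21.9% were called higher in naive and 16.4% in postpartum hearts. Cct8 went from 97.3 ± 8.46 to 258 ± 26.3 CPM in naive hearts (log2 fold change 1.41, SE 0.15, edgeR adjusted p = 2.7e-08), Cct2 had 0.82 (SE 0.14) and Cct3 1.05 (SE 0.18). In postpartum hearts Cct3 had 1.18 (SE 0.20), Cct8 0.96 (SE 0.17) and Cct2 0.75 (SE 0.15). The list median was 0.64 in naive and 0.54 in postpartum hearts on the log2 scale. Cct7 was the one subunit gene called in neither, with -0.14 and -0.12.

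Among the partners of HSP70 and HSP90 genes were called in both directions, where over all genes tested 21.9% were higher and 21.6% lower in naive hearts and 16.4% and 15.2% in postpartum hearts. Of 8 other J-domain genes, 4 rose and 2 fell in naive hearts and 4 rose and 1 fell in postpartum hearts. Dnajb6, which suppresses aggregation, had 0.70 (SE 0.14) and 0.69 (SE 0.15), Dnaja2 0.61 (SE 0.13) and 0.58 (SE 0.15), while Dnajc7 fell in naive hearts (-0.88, SE 0.20) and Dnajb5 in postpartum hearts (-1.29, SE 0.34). Of 11 HSP90 co-chaperones, 3 rose and 2 fell in naive hearts and 2 rose and 1 fell in postpartum hearts, shares near those of all genes. The largest change was a fall of Fkbp4, the immunophilin FKBP52 of steroid receptor complexes, from 480.3 ± 96.1 to 125 ± 17.7 CPM in naive hearts (log2 fold change -1.94, SE 0.19, edgeR adjusted p = 1.2e-08) and by -1.97 (SE 0.22) in postpartum hearts. Sugt1 had 0.89 (SE 0.15) and 0.67 (SE 0.16), and Ptges3, the co-chaperone p23, 0.56 (SE 0.14) and 0.73 (SE 0.15). Of 8 genes listed with the exchange factors and CHIP, 2 rose and 1 fell in each comparison, also near the shares of all genes. Bag2, an inhibitor of CHIP, rose (1.39, SE 0.19, and 1.17, SE 0.20). So did St13, which is in this list but does not encode an exchange factor (0.55, SE 0.14, and 0.48, SE 0.15). Bag1 fell (-0.73, SE 0.13, and -0.48, SE 0.15).

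Of 4 genes tied to BAG3 at the Z-disc and in autophagy, Sqstm1, which encodes the autophagy receptor p62, rose (log2 fold change 2.72, SE 0.17, edgeR adjusted p = 1.5e-12 in naive, and 2.82, SE 0.19, in postpartum hearts) and Synpo2, the BAG3 partner synaptopodin 2, fell (-1.13, SE 0.14, and -0.82, SE 0.15). Des and Flnc, also in this list, were not called. Counts in this list and the next ones stand beside the shares of all genes tested. These were 21.9% called higher and 21.6% lower in naive hearts, and 16.4% and 15.2% in postpartum hearts. Of the 3 endoplasmic reticulum relatives, Hspa5 (BiP) fell in both comparisons (-0.68, SE 0.15, and -0.60, SE 0.16) and Hsp90b1 fell in naive hearts (-0.34, SE 0.12). Of the 4 mitochondrial relatives, 3 rose and Trap1 fell (-0.42, SE 0.15) in naive hearts, and 2 rose in postpartum hearts: Hspa9 (mortalin) had 0.90 (SE 0.13) and 0.63 (SE 0.15), Hspd1 (HSP60) 0.57 (SE 0.14) and 0.61 (SE 0.16), and Hspe1 had 0.49 (SE 0.17) in naive hearts. No gene of these lists was called between states, in the interaction or between diets.

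**Figure D4:**
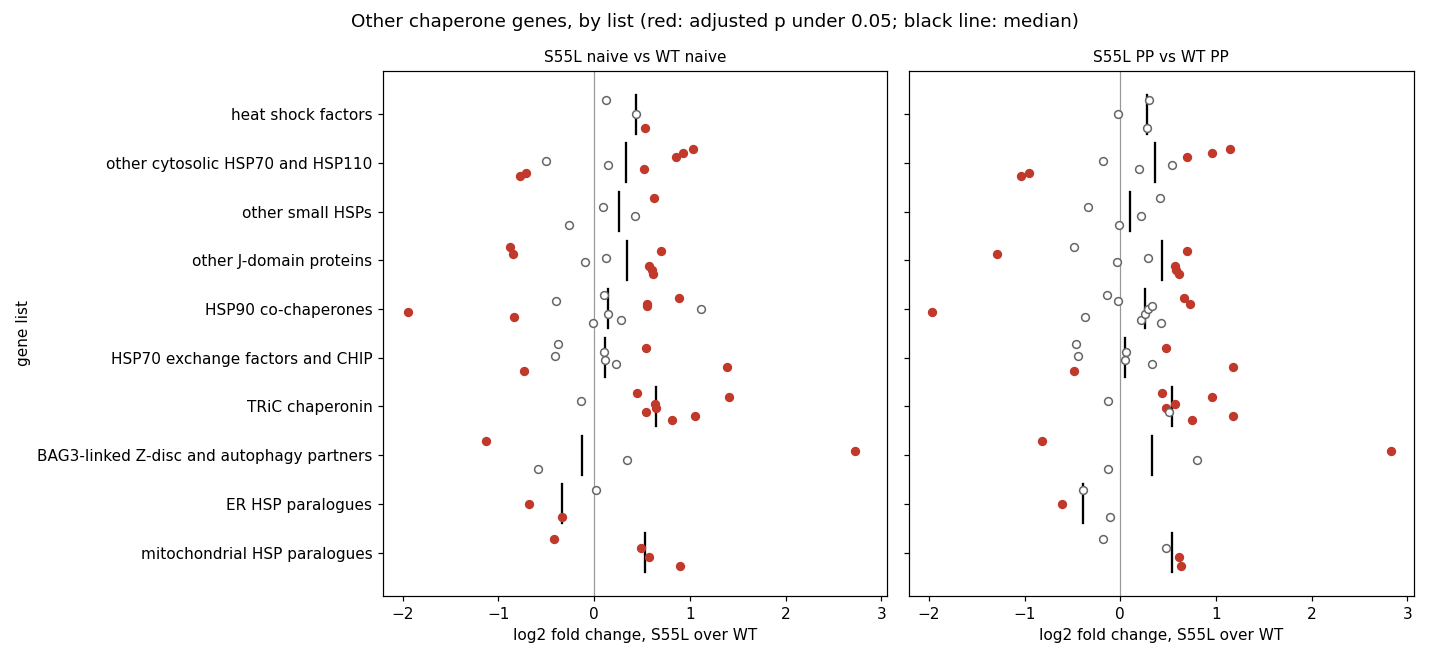
Log2 fold change of S55L over WT (x axis) for every tested gene (points) of 10 lists of other chaperones (y axis), in naive hearts on the left and postpartum hearts on the right, red where the adjusted p was under 0.05, with a black line at the list median. The TRiC points lie right of 0 except Cct7, and the lists of co-chaperones have called genes on both sides, with Fkbp4 furthest left and Sqstm1 furthest right.

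Markers of cell types also differed between genotypes. Over all genes tested 21.9% were called higher and 21.6% lower in naive hearts, and 16.4% and 15.2% in postpartum hearts. Of 6 cardiomyocyte markers 0 rose and 5 fell in each comparison, and their summed level spanned 50072 to 67296 CPM (WT naive), 49886 to 65146 (WT PP), 34165 to 46762 (S55L naive) and 26753 to 35459 (S55L PP). All 6 macrophage markers rose in each comparison, with sums of 127 to 176 CPM (WT naive), 170.5 to 291 (WT PP), 591 to 872 (S55L naive) and 609.0 to 875 (S55L PP). Of 6 fibroblast markers 3 rose in naive and 4 in postpartum hearts, and of 5 smooth muscle and pericyte markers 1 rose and 3 fell in naive and 1 rose and 1 fell in postpartum hearts, with Acta2 higher and Rgs5 lower in both. Of 5 endothelial markers 2 fell in naive and 1 in postpartum hearts, and of 5 erythroid markers 3 fell in naive hearts and none was called in postpartum hearts. The 5 skeletal muscle markers summed to 0.356 to 4.07 CPM in the postpartum study, and none passed the filter. Of 9 tested immediate early genes Atf3 rose in both comparisons (2.61, SE 0.56, and 3.01, SE 0.61), while Nr4a1 and Jun fell in naive hearts, Dusp1 fell in postpartum hearts and Junb rose there. Mitochondrially encoded genes took 16.8% to 24.6% of reads on genes in WT and 9.52% to 15.5% in S55L libraries. The part of these shifts in the heat shock values was not tested.

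How the members vary beside genotype and state was described by the genes most like each one, from Pearson's r over the 18 postpartum libraries after group means were taken out, with genes averaging under 5 CPM set aside. Hsp90aa1 was most like Gm49240, a long non-coding RNA gene (r = 0.94), the filamin gene Flnc (0.83) and Chid1 (0.82). Gm49240 had 0 to 2 reads in each WT library, and stood at 13.4 ± 8.29 CPM in S55L naive and 28.7 ± 24.2 CPM in S55L PP hearts (SD). It passed the limit of 5 CPM only through the S55L libraries, and its r rests mainly on them. Hspa8 was most like Tex264 (0.91), Stip1 (0.86) and Myo1c (0.86), and Hspb1 like Stip1 (0.91), Sppl2b (0.85) and Dnpep (0.80). Stip1 encodes the HOP protein, which joins HSP70 to HSP90. S55L PP library 1 was the highest of its group in Hsp90aa1, Hspa8 and Hspb1, and also in Stip1 (88.6 CPM, against 32.4 to 42.2 in the other three), Flnc (239 CPM, against 57.0 to 95.8) and Gm49240 (62.4 CPM, against 11.0 to 30.4).

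Hspb7 was most like Arpc4 (r = 0.97), Arf5 (0.96) and Asna1 (0.95), and all of these were highest of their group in WT PP 5 and in S55L naive 3, the libraries that stood apart in Hspb7. Arf5 read 57.7 CPM in WT PP 5, where the group median was 16.1, and 38.8 CPM in S55L naive 3, where it was 10.7. Cryab was most like Cdc42 (0.92), Tubb6 (0.91) and Mrpl34 (0.91), Dnajb1 like Hax1 (0.91) and Arpc5 (0.87), and Hsp90ab1 like Ddb1 (0.86), Ubn1 (0.85) and Srrm1 (0.84). Hspa1a was most like Atf3 (0.82), Cebpg (0.81) and Ier5 (0.81), Hspa1b like Fgfr3 (0.77), Stbd1 (0.76) and Sppl2b (0.76), and Bag3 like Rnf44 (0.79), Hnrnpa2b1 (0.78) and Pwwp2a (0.76). Atf3 averaged 2.82 CPM in WT naive and 2.30 CPM in WT PP hearts, and also passed the limit of 5 CPM only through the S55L libraries. The values of r have no test, since the genes were picked for them and the libraries share depth and preparation.

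Between the diets no member was called among the 9 tested, and Hspa1b, with 0 to 8 reads per library, did not pass the filter. Of all 10335 genes tested 0 were called higher (0.00%) and 0 lower (0.00%), with 138 at an unadjusted p under 0.05, 0 called by the DESeq2 test and 1 by voom, and no member at an unadjusted p under 0.05. Hsp90aa1 read 538, 322, 423 and 508 CPM in control diet libraries 1 to 4 and 221, 166, 504 and 220.5 CPM in EH301 libraries 7 to 10. EH301 libraries 7, 8 and 10 lay below all control libraries and library 9 lay among them. The log2 fold change of -0.68 (SE 0.36, unadjusted p = 0.082) did not pass the edgeR test after adjustment, and it was -1.18 without EH301 library 9. Hsp90aa1 had the largest change in size of the 9 tested members, and 1.07% of tested genes had a log2 fold change below its -0.68. That rank leaves the spread between libraries aside. Without the shallowest library of each diet Hsp90aa1 had -0.42, an alternative chosen after seeing the data.

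Several members varied widely within each diet. Hspb7 read 5967, 1377, 1133 and 1769.5 CPM on the control diet and 1418, 3993, 1364 and 2312 CPM on EH301. Cryab read 728, 3183, 3920.2 and 1735 CPM on the control diet and 2404, 1624, 3814 and 1791 CPM on EH301. The 4 libraries with the most Cryab (3, 9, 2 and 7) were the 4 with the least Hspb7, in both diets. Library 1 of the control diet and library 8 of EH301, the shallowest of their diets with 466651 and 1141997 reads on genes, had the most Hspb7 and the least Cryab.

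The same libraries 1 and 8 were the highest in Dnajb1 (231.5 and 266 CPM, against 80.2 to 174 in the other six) and in Hsp90ab1 (7125 and 5616 CPM, against 3004 to 4172). Hspa8 was lowest in library 1 (121 CPM) and highest in library 8 (378 CPM), with 277 to 315.7 CPM in the others. Libraries 1 and 8 also had the lowest percentage of mitochondrially encoded reads (6.95% and 11.9%, against 16.9% to 24.6%), the most macrophage marker reads (4088 and 4822 CPM, against 1181 to 2245) and the most skeletal muscle marker reads (1189 and 329.9 CPM, against 12.0 to 37.2). Cardiomyocyte markers summed to 25433 CPM in library 1 and to 36335 CPM or more in the others. The part of these differences in the heat shock values was not tested.

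**Figure D5:**
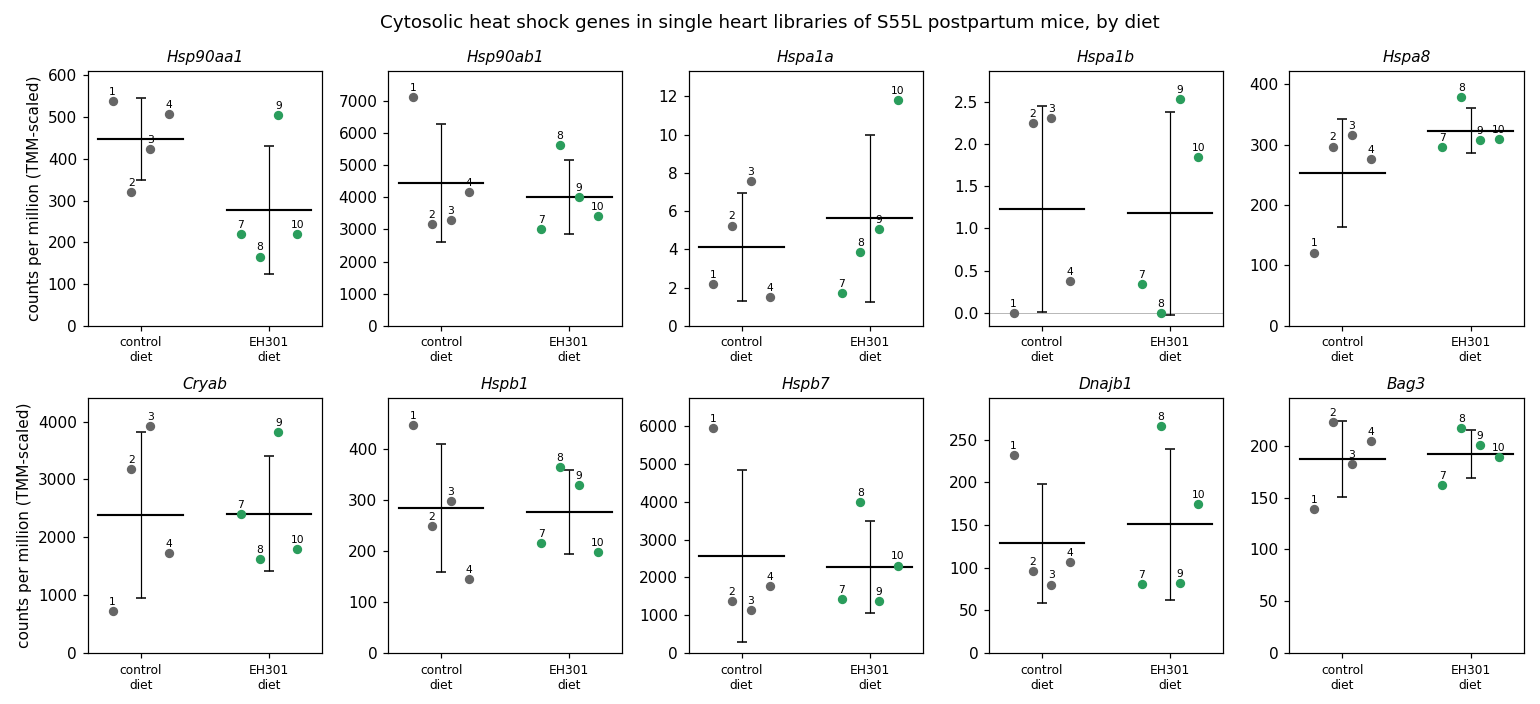
TMM-scaled CPM (y axis, from 0, each panel its own scale) of the 10 genes in the 8 libraries of S55L postpartum hearts of the diet study (numbered points) by diet (x axis), with the mean (line) and SD (bar). Libraries 1 and 8 lie highest in Hspb7, Dnajb1 and Hsp90ab1 and lowest in Cryab, and for Hsp90aa1 EH301 library 9 lies with the control diet.

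The remaining values overlapped between the diets. The log2 fold change of EH301 over control was 0.34 (SE 0.31) for Hspa8, 0.32 (SE 0.59) for Hspa1a, 0.26 (SE 0.44) for Dnajb1, 0.03 (SE 0.24) for Bag3 and 0.01 (SE 0.48) for Cryab. It was -0.03 (SE 0.36) for Hspb1, -0.15 (SE 0.36) for Hsp90ab1 and -0.17 (SE 0.55) for Hspb7. Hsp90aa1 made up 9.61% ± 1.95 of HSP90 pair reads on the control diet and 6.74% ± 3.41 on EH301 (SD, n = 4 each, exact permutation p = 0.20, adjusted p = 0.34). Hspa1a and Hspa1b made up 1.99% ± 1.02 and 2.08% ± 1.61 of the HSP70 reads (exact permutation p = 0.91). These shares stand beside 33.1% ± 5.57 and 1.35% ± 0.455 in S55L PP hearts of the postpartum study, which was counted on another set of genes, and were not compared with them. The members took 1.07% ± 0.281 of reads on genes on the control diet and 0.982% ± 0.172 on EH301.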

How the data were processed

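The authors deposited a table of counts of 3′ reads per Ensembl gene for each study. Per the submitters' processing notes the tools were Trimmomatic 0.39, STAR 2.7.0f, HTSeq 0.6.1 and DESeq2 (given as 3.21), with the build GRCm39.p6; the order of steps, the annotation release and the strand setting were not given in the sources used here. The deposited tables list reads aligned to several places, to several genes or to no gene in rows of their own, so a gene with near-identical copies can lose reads; these rows were kept out of library sizes and tests. Mitochondrially encoded genes were kept.

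Symbols came from GENCODE M21 by Ensembl ID, which named 51487 genes with 99.4% of reads in the postpartum table and 52073 genes with 99.8% in the diet table. The postpartum libraries (18 used) and the diet libraries (8 used) were fitted separately with edgeR 4.0.16 in R 4.3.3: filterByExpr by group, TMM scaling, a robust quasi-likelihood fit and Benjamini-Hochberg adjustment over all genes tested, with a threshold of 0.05. The standard error is the log2 fold change divided by the root of the F statistic. Exact two-sided permutation tests of the shares used scipy 1.17.1. DESeq2 1.42.0 and limma 3.58.1 (voom) were alternatives, as were other scalings, no filter, the column-name number as a term, the title number as a block, both Hspa1 genes summed, all deposited columns, and each library left out. The biological coefficient of variation was 0.199 and 0.299. Columns counted once had 0 genes that differed, while other pairs within a group had a chi-square per gene of at least 2.16 (postpartum) and 4.94 (diet). The edgeR fit was also tested on simulated data.

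Deviations from the group means correlated within each pair of WT PP and S55L PP libraries of 1 title number (r from 0.160 to 0.391 over 4 pairs). The library of the same number gave the highest r in 3 of these 4 pairs. It also did so in 3 of 4 pairs between WT PP and S55L naive and between S55L naive and S55L PP libraries. For title number 1 this held in every pair of groups. All pairs of groups other than WT PP with S55L PP had at least 1 pair at or below 0.1. The meaning of the numbers is not given, so the main tests were unpaired and the title number was a block only as an alternative. All members were named in each comparison, with up to 3 called genes of lowest adjusted p per list and the 3 genes most like each member (log2 CPM with a prior count of 2), of which 1 is not reported here. Cct7, Des, Flnc, Hsf1, Hspb2 and the genes given as not called were named after their values were seen. The members and lists were chosen with earlier results of these data known.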

Additional observations from a re-analysis of the deposited data

Results flagged for a closer look

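In 60 sets of 4 or 5 libraries (10 genes in 6 groups) the highest or lowest library was compared with the rest by Dixon's gap ratio, and 5 had a library beyond the 95% critical value; chance alone marks about 1 in 20. Hspb7 stood at 806 CPM in WT PP library 5, where the others read 137 to 187, and at 448 CPM in S55L naive library 3, where they read 106 to 123. On the control diet Hspb7 stood at 5967 CPM in library 1, against 1133 to 1769.5 in the others. On the EH301 diet Hsp90aa1 stood at 504 CPM in library 9, against 166 to 221, and Hspa8 at 378 CPM in library 8, against 296 to 309.9.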

How the results depend on the processing

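Hsp90aa1 and Cryab kept their calls and direction under all 22 alternatives in naive and all 20 in postpartum hearts. With the code number as a term, 3 members were called in naive and 3 in postpartum hearts, and Hsp90ab1 turned to -0.028 in postpartum hearts; that term rests on WT PP 1 and S55L PP 5 and was not run for the diets, where it cannot be told apart from diet. Leaving out 1 library gave 6 to 7 called members in naive and 4 to 7 in postpartum hearts. Over all genes these fits called 4565 to 4968 in naive and 3089 to 4146 in postpartum hearts. In postpartum hearts Hspa8 was called under 13 of 20 alternatives, and of those not called there Dnajb1 passed under 4 of 20, Hspa1a under 7 and Hspa1b under 3; in naive hearts Hspa1a passed under 8 of 22 and Bag3 under 3. Using all deposited columns, which counts 2 pairs of identical columns as separate libraries, the Hsp90aa1 share differed by 17.5, 19.0 and 2.09 percentage points (exact permutation adjusted p = 0.026 each; S55L over WT naive, S55L over WT PP, WT PP over WT naive), and the Hspa1 share by 0.518 points between S55L PP and WT PP (adjusted p = 0.040). With the replicate block 7 members were called in naive and 6 in postpartum hearts, Hspa1a being the one added each time, and 5476 and 4119 genes in all. No paired analysis was possible because the diets share no title numbers; this holds for the diet study alone. Over all genes, the code number term gave 2871 and 2109 calls against 5193 and 3770. Between WT PP and WT naive hearts, where 2 genes were called, no filter gave 21, DESeq2 10, the code number term 21 and leaving out WT PP 1 gave 10. Between S55L PP and S55L naive hearts, where 0 were called, no filter gave 37, voom 20, DESeq2 14 and all columns 10. Why these calls moved was not tested. Reads limit Hspa1a and Hspa1b, with 0 to 61 per library.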
